A study of Mus musculus with 6 samples.

Results

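A set of 10 genes of the immediate early class were followed through cortex RNA of newborn mice: Fos, Fosb, Junb, Egr1, Egr2, Egr3, Npas4, Arc, Nr4a1 and Ier2. They were chosen by name, as genes known to respond to neuronal activity and to handling, and were 10 of 23621 genes in the deposited table. All 10 passed the filter on low counts, among 16274 genes tested. The comparison was between cortex of wild-type littermates and of Tle4-/- null mutants at postnatal day 0, with 3 libraries of each genotype. The product of Tle4 is a transcriptional co-repressor of the Groucho family, and the study concerns how projection neurons acquire their identities. All animals shared a mixed C57BL/6J, 129S6 and CD1 background, the cortex was dissected in ice-cold salt solution before freezing, and how the null allele was made is not given in the sources used here.

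Immediate early genes are transcribed within minutes of a stimulus, from signalling proteins and transcription factors already present in the cell, without new protein synthesis. In neurons, calcium entry and growth factor signalling act on factors such as CREB, SRF and MEF2 that sit at these promoters. Many of the products are themselves transcription factors, which switch on a later set of genes, and Arc is an exception that acts at synapses. Because the transcripts appear and decay quickly, their level in dissected tissue also follows the handling of the animal before freezing.

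The libraries held 18617408 to 21632607 counts. Tle4 itself fell from 169 ± 27.8 to 81.0 ± 10.1 CPM (library-size-scaled counts with TMM factors; mean ± SD, n = 3 each), a log2 fold change of -1.06 (SE 0.14, edgeR adjusted p = 0.0377). This call was lost in 5 of the 6 fits that left out 1 library, with edgeR adjusted p from 0.0306 (wild-type replicate 2 dropped) to 0.162 (wild-type replicate 3 dropped), and with a block for replicate number (0.207). The log2 fold change itself was -1.17 to -0.93 over the 6 fits and -1.05 with the block. Markers of cortical neurons were present in every library, at a summed 2011 to 2546 CPM for 8 genes that include Tbr1 and Neurod2. Xist, the X-inactivation transcript, had 11 to 37 counts in the wild types against 66194 to 79080 in the mutants, so an effect of Xist status or sex and one of genotype cannot be told apart. Y-linked Ddx3y had 1463, 1891 and 2 counts across the wild types and 0 to 2 in the mutants, so wild-type replicate 3 was low in both transcripts and stood apart. The row of mt-Co1, a mitochondrial gene, held 0 to 1 counts in the wild types and 160285 to 180109 in the mutants, so a row in this table can be filled in 1 genotype only. No row of the 10 genes was empty in any library, the lowest count being 6. No label ties a library to a litter, so p-values measure only the spread between these samples.

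The stretches upstream of 4 of the genes hold letter matches to short elements known from promoters of such genes. Fos, Fosb and Nr4a1 are given because they turn up in the differences between libraries or genotypes described below. Egr2 is given because, of the 6 genes with a promoter sequence, it alone held a CArG box in the stretch searched. An element farther upstream would have been missed. The stretches are RefSeq promoter sequences on GRCm38.p6, 5′ to 3′ on the gene's strand, ending at or just before the transcript start. Capitals mark TGACG (part of a cAMP response element, CRE), the EGR site GCGNGGGCG and the CArG box bound by SRF, each read on both strands. Fos is at chr12:85473640-85473889 on the plus strand, Fosb at chr7:19310052-19310295 on the minus strand, Egr2 at chr10:67537619-67537868 on the plus strand, before an internal start, and Nr4a1 at chr15:101266596-101266845 on the plus strand.

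Fos: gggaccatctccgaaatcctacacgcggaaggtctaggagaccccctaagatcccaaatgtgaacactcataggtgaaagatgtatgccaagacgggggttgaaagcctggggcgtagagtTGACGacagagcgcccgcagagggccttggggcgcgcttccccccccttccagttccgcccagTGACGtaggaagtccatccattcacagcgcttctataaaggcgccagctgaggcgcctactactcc
Fosb: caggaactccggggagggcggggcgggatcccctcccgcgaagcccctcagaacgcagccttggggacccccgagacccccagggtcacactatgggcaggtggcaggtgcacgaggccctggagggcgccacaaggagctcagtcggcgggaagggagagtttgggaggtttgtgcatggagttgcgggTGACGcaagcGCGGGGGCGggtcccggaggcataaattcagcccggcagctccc
Egr2: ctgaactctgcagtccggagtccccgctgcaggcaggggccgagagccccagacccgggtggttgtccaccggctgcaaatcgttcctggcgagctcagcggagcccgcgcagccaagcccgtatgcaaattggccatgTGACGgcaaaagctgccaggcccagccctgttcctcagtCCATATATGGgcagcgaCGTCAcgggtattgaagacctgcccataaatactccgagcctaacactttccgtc
Nr4a1: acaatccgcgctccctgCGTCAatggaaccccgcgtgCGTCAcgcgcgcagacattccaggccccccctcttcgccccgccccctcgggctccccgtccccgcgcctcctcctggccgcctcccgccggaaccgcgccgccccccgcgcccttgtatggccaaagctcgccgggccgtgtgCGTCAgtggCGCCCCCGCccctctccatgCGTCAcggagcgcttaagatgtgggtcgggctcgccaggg

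Of the 10 genes, 6 had an entry in the RefSeq promoter table (Fos, Fosb, Junb, Egr2, Npas4 and Nr4a1). These 6 genes had 10 listed promoters, of which Egr2 had 5, some overlapping. TGACG lay in the 250 bases before the start in 8 of the 10, against 17.8% of all 32851 promoters in the table, and the 2 without it were both of Egr2. The Egr2 promoters with TGACG overlap and hold the same copies, so they are not separate cases. Nr4a1 held 4 copies. Fos, Npas4 and each of the overlapping Egr2 promoters held 2. The full CRE TGACGTCA was in none of the 6 (1.55% of all promoters), nor was the AP-1 site TGANTCA (6.75%), the element bound by Fos and Jun proteins. The EGR site was found in 2 of the 10 promoters, at Fosb and Nr4a1 (4.70% of all), and the CArG box in 4 of the 10, at Egr2 alone (1.47% of all). The overlapping Egr2 promoters share the same copy of this box too, CCATATATGG. The Egr2 promoter at chr10:67537316-67537565, which lies apart from them, holds a different copy, CCTTTTTTGG. These matches describe the letters in the window and do not show that a factor was bound.

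None of the 10 genes differed between the genotypes by edgeR at an adjusted p under 0.05, a threshold that 0.111% of all genes tested passed. Their edgeR adjusted p were all 0.9996, and 0 of 10 had an unadjusted p under 0.05 (3.45% of all genes), the smallest being 0.0849. The DESeq2 Wald test and limma-voom also called 0 of 10, with 0 at an unadjusted p under 0.05. In the authors' deposited table the adjusted p was 1 for each of the 10. The log2 fold changes lay below 0 for 7 genes and above 0 for 3, against 51.3% of all genes below 0, with a median of -0.08 for the 10 and -0.01 over all genes tested. The 95% interval of the difference stayed within a 2-fold change in either direction for 7 genes, and reached beyond a 2-fold decrease for Fosb, Arc and Egr3. For Fos it ran from 0.719-fold to 1.98-fold. In bulk tissue fewer expressing cells and less RNA per cell cannot be told apart.

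**Figure D1:**
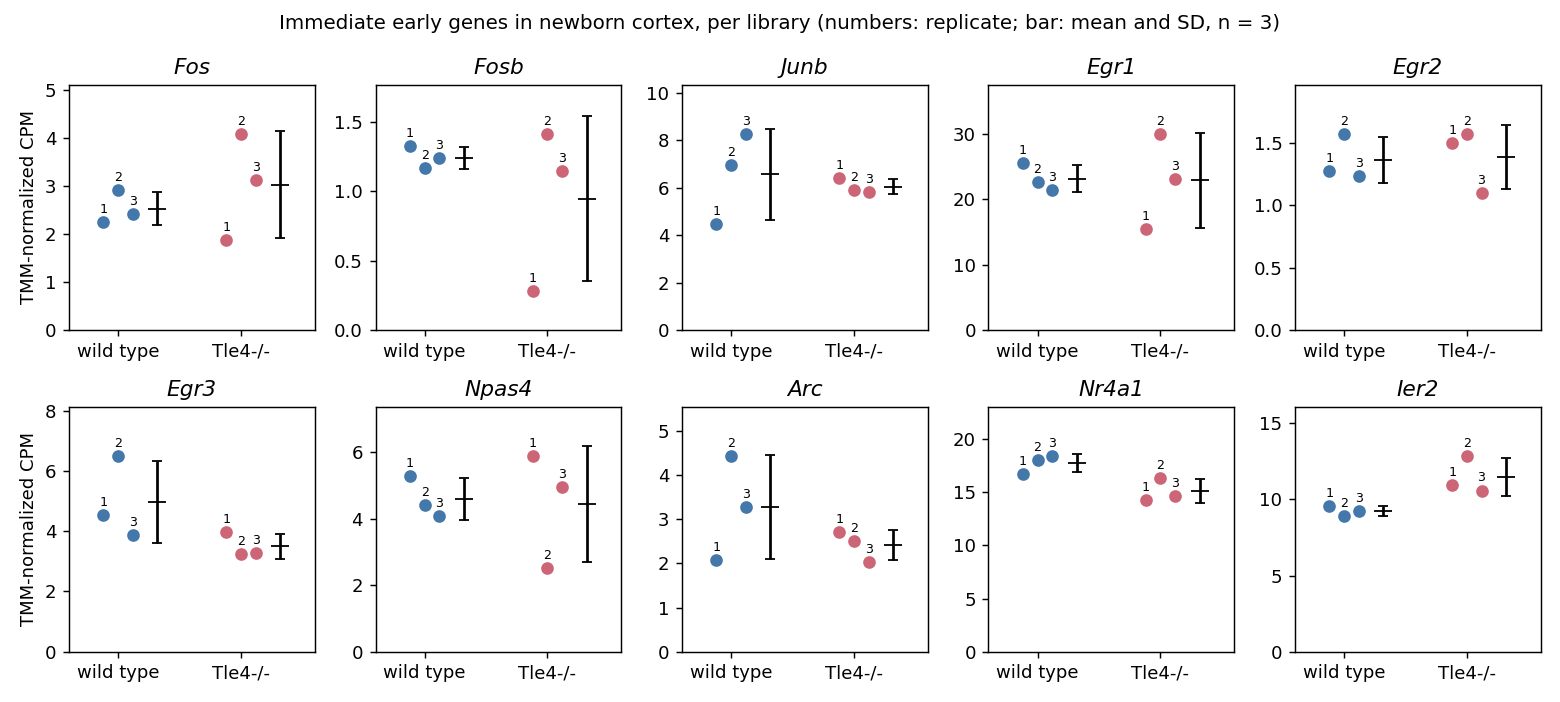
TMM-normalized CPM (y axis, from 0) of each of the 10 genes in the 3 wild-type (blue) and 3 Tle4-/- (red) libraries, with the replicate number above each point and the mean and SD beside each group. The groups overlap for 8 genes; Nr4a1 is lower and Ier2 higher in all 3 mutants.

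Fos, Fosb and Junb encode subunits of AP-1, in which a Fos protein pairs with a Jun protein. Fos stood at 2.24, 2.92 and 2.42 CPM in the wild types (replicates 1, 2 and 3, in this order throughout) against 1.87, 4.08 and 3.13 CPM in the mutants. Both the lowest and the highest of the 6 values were in mutants, and the groups overlapped (log2 fold change 0.26, SE 0.33). Without mutant replicate 2 the log2 fold change of Fos was -0.019, and without mutant replicate 1 it was 0.51. These levels rest on 40 to 78 counts per library.

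Fosb was the least abundant of the 10, with 26, 26 and 23 wild-type counts against 6, 27 and 22 mutant counts. The low value in mutant replicate 1 set the log2 fold change of -0.40 (SE 0.50), which became 0.047 without that library and -0.81 without mutant replicate 2. In CPM, Fosb was 1.24 ± 0.0787 in the wild type and 0.947 ± 0.592 in the mutant (SD, n = 3 each). The SD was 0.316 times that of counting error among the wild types and 2.68 times among the mutants. Junb had 4.48, 6.96 and 8.28 CPM in the wild types against 6.41, 5.91 and 5.84 CPM in the mutants. Here the spread was in the wild type, and the mutant values lay inside it (log2 fold change -0.12, SE 0.25, 0.080 without wild-type replicate 3, -0.33 when replicate 1 was dropped instead).

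Jun, the partner of Fos in AP-1 and no member of the 10, was higher in every mutant than in every wild type. It stood at 41.7, 42.9 and 40.6 CPM in the wild types against 64.5, 85.3 and 47.8 CPM in the mutants. The log2 fold change was 0.66 (SE 0.19), with an unadjusted p of 0.00702 and an edgeR adjusted p of 0.9996, so it did not pass the threshold over all genes. Without mutant replicate 2 the log2 fold change of Jun was 0.43. Jun overlaps the antisense gene Junos in the table, and whether counting used the strand is not given in the sources used here.

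The EGR genes encode zinc-finger transcription factors that bind GC-rich sites. Egr1, the most abundant of the 10 in CPM, stood at 25.5, 22.6 and 21.4 CPM in the wild types against 15.5, 30.0 and 23.2 CPM in the mutants. The means were nearly equal, at 23.2 ± 2.07 and 22.9 ± 7.25 CPM (SD, n = 3 each; log2 fold change -0.019, SE 0.22). Mutant replicates 1 and 2 bracketed all other libraries, and the SD among mutants was 6.72 times that of counting error, against 1.93 times among wild types. Without mutant replicate 1 the log2 fold change of Egr1 was 0.20, without mutant replicate 2 it was -0.26, and dropping wild-type replicate 1 gave 0.054.

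Egr2, known for its role in hindbrain segments and in the Schwann cells that myelinate peripheral nerve, was low throughout, at 21 to 35 counts per library. Its log2 fold change was 0.027 (SE 0.31), and the SD in each genotype was below that of counting error (0.708 and 0.968 times). Its sign turned when replicate 1 or 3 of the wild type, or 1 or 2 of the mutant, was left out, and the 6 such fits gave -0.069 to 0.17.

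Egr3 had the lowest unadjusted p of the 10. It stood at 4.53, 6.51 and 3.87 CPM in the wild types against 3.98, 3.24 and 3.28 CPM in the mutants, so only mutant replicate 1 reached into the wild-type range. The log2 fold change was -0.51 (SE 0.26, interval -1.10 to 0.085, unadjusted p = 0.0849, edgeR adjusted p = 0.9996). It was -0.26 without wild-type replicate 2, the library with the highest value, and -0.66 without wild-type replicate 3, where the unadjusted p was 0.0426. Egr4, a further EGR gene, had a log2 fold change of -0.52, and Nab2, a co-repressor that binds EGR proteins, of -0.40. Nab2 was highest in wild-type replicate 2, at 17.5 CPM against 8.50 to 10.6 in the other libraries, and its log2 fold change was -0.091 without that library. Neither passed the threshold, and Nab2 overlaps other genes in the table.

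Npas4 and Arc are the members most closely tied to neurons. Npas4 encodes a transcription factor induced by calcium entry in neurons, and stood at 5.30, 4.40 and 4.08 CPM in the wild types against 5.89, 2.51 and 4.95 CPM in the mutants. The highest and the lowest values were again both in mutants, but in the opposite libraries to Fos: mutant replicate 1 was the highest for Npas4 and the lowest for Fos, and mutant replicate 2 the reverse. The count of Fos over that of Npas4 was 0.423, 0.663 and 0.592 in the wild types against 0.317, 1.63 and 0.632 in the mutants. The log2 fold change of Npas4 was -0.043 (SE 0.32), and became 0.24 without mutant replicate 2 and 0.072 when wild-type replicate 1 was dropped.

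Arc, a cytoskeleton-associated protein of dendrites that controls glutamate receptor trafficking, stood at 2.09, 4.44 and 3.28 CPM in the wild types against 2.71, 2.51 and 2.03 CPM in the mutants. Wild-type replicate 2 was the highest, as it was for Egr3 and Egr2. The groups overlapped (log2 fold change -0.44, SE 0.32), and the value was -0.14 without wild-type replicate 2, -0.67 when replicate 1 was dropped instead.

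Nr4a1 and Ier2 were the 2 genes whose genotypes did not overlap, which held for 7.93% of all genes tested. Nr4a1, an orphan nuclear receptor, stood at 16.8, 18.0 and 18.4 CPM in the wild types against 14.3, 16.4 and 14.6 CPM in the mutants. It was lower without overlap, as were 3.75% of all genes, in 3 of 3 mutants, by a factor of 0.851 (log2 fold change -0.23, SE 0.15, unadjusted p = 0.141, edgeR adjusted p = 0.9996). Ier2, a nuclear protein named for its immediate early induction, stood at 9.57, 8.93 and 9.24 CPM in the wild types against 10.9, 12.9 and 10.6 CPM in the mutants. It was higher without overlap, as were 4.18% of all genes, in 3 of 3 mutants, by 1.24-fold (log2 fold change 0.31, SE 0.17, unadjusted p = 0.0992, edgeR adjusted p = 0.9996). Both kept their sign in all 14 alternative settings, at -0.30 to -0.19 for Nr4a1 and 0.22 to 0.36 for Ier2. For the fits that left out 1 library this follows from the lack of overlap and adds nothing to it. Egr3 and Arc, whose genotypes overlapped, also kept their sign in all 14 settings. Nr4a1 and Ier2 were the 2 members with the smallest spread within genotypes, at SDs of 0.09 and 0.11 on the log2 CPM scale.

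**Figure D2:**
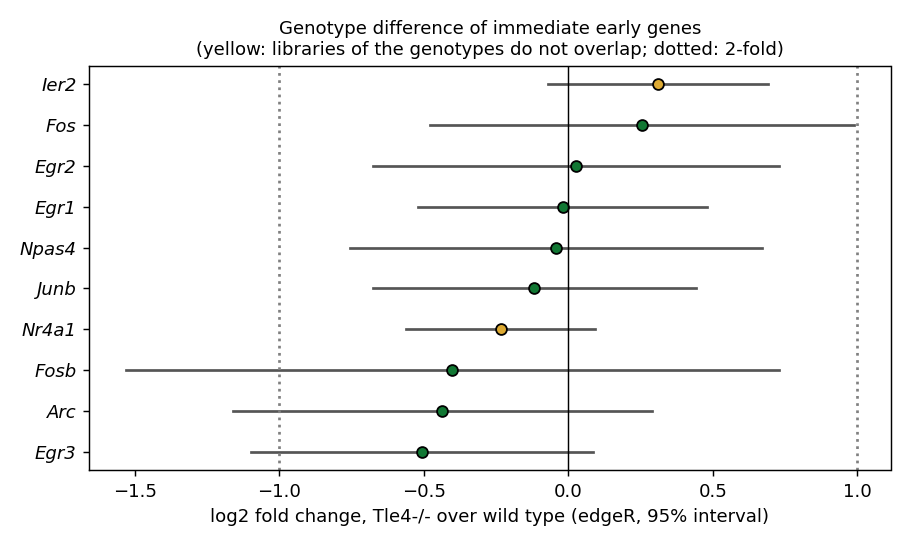
Log2 fold change of each gene, Tle4-/- over wild type (x axis), with its 95% interval from edgeR. Every interval crosses 0, and those of Fosb, Arc and Egr3 reach below -1.

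Deviations of the 10 genes went in both directions in every library. Each gene's log2 CPM was taken as a deviation from its own mean over the 6 libraries. The mean deviation over the 10 genes was -0.03, 0.19 and 0.04 across the wild types, against -0.21, 0.07 and -0.06 across the mutants. Mutant replicate 2 held the highest value of Fos, Fosb, Egr1 and Ier2 and the lowest of Egr3 and Npas4. Mutant replicate 1 held the lowest value of Fos, Fosb, Egr1 and Nr4a1 and the highest of Npas4. Wild-type replicate 2 held the highest value of Egr2, Egr3 and Arc, and 8 of the 10 genes were above their mean there, against 4 to 6 in each other library.

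**Figure D3:**
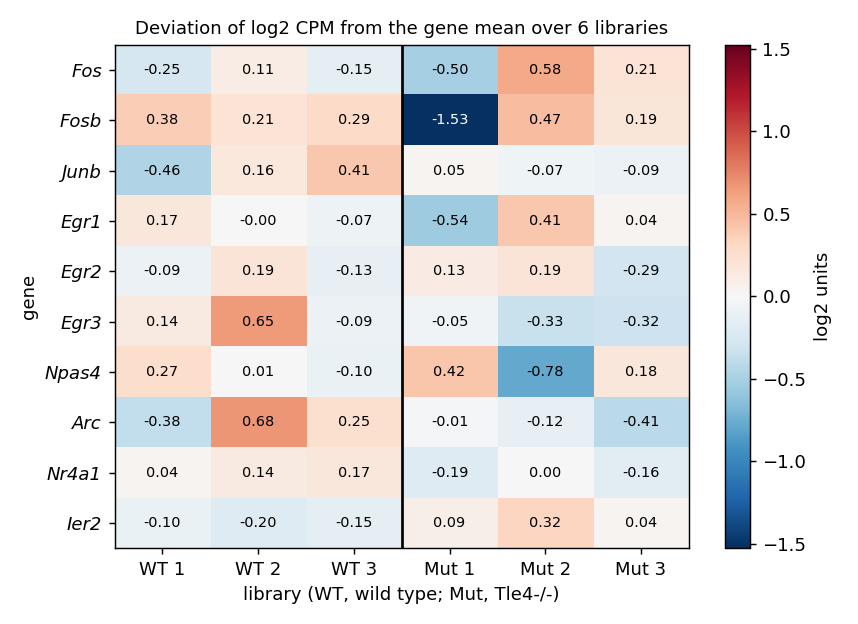
Deviation of log2 CPM from each gene's mean over the 6 libraries (colour and number, log2 units), genes in rows and libraries in columns. Fos, Fosb and Egr1 are low in mutant replicate 1 and high in mutant replicate 2, where Npas4 is at -0.78.

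The profile of Fos was set beside those of all other named genes at 1 CPM or more. Likeness was the largest absolute difference between mean-centred log2 CPM over the 6 libraries. Of 13354 genes, the nearest were Col22a1 (0.13), Moxd1 (0.17), Entpd2 (0.17), Ddit4 (0.19) and Sardh (0.19), none past the threshold between genotypes. Among the members Egr1 was the nearest to Fos, at 0.43, with 4.23% of genes nearer than it, and Npas4 the farthest, at 1.36. The 3 highest libraries of Fos were wild-type replicate 2 and mutant replicates 2 and 3. In any order, the same 3 were the highest for 5.78% of all genes tested. The summed levels of the endothelial, meningeal, microglial, red cell and choroid plexus marker lists were highest in the same 3 libraries. Endothelial markers (8 genes) summed to 199 to 264 CPM in those libraries and 158 to 187 CPM in the other 3. Meningeal markers (8 genes) summed to 237 to 501 against 13.1 to 198 CPM, with Col1a1 at 28 counts in wild-type replicate 1. Microglial markers (8 genes) summed to 67.4 to 93.5 against 54.4 to 63.7 CPM. Red cell markers (6 genes, with Hba-a2 at or below 3 counts everywhere) summed to 194 to 246 against 129 to 157 CPM. Choroid plexus markers (6 genes) summed to 5.08 to 103 against 1.73 to 4.41 CPM, the highest value resting on Ttr, at 1789 counts in mutant replicate 3 and 1 to 5 elsewhere. The cortical neuron and striatal marker sums were highest in the other 3 libraries, at 2394 to 2546 against 2011 to 2348 CPM and at 307 to 412 against 276 to 302 CPM. The interneuron sum followed neither grouping. It was highest in wild-type replicates 1 and 3 and mutant replicate 2, at 551 to 585 CPM, and lowest in mutant replicate 1, at 475 CPM. No other member had the same 3 highest libraries as Fos. Within these 3 the order differed, with Fos highest in mutant replicate 2 and the endothelial, meningeal and microglial sums in wild-type replicate 2. Red cell and choroid plexus sums were highest in mutant replicate 3. All of these sums were lowest in wild-type replicate 1, and Fos in mutant replicate 1. The part of these cell types in the level of Fos was not tested.

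Spread within genotypes was compared with that of other genes through the edgeR dispersion, as the ratio of a gene's value to the trend at its level. That value is itself drawn towards the trend by edgeR, so the ratios are drawn towards 1. The ratio was above 1 for Fosb (1.36), Egr1 (1.26) and Npas4 (1.03), that is 3 of 10 members, against 24.4% of all genes. The median was 0.830 for the 10 genes and 0.760 for all genes tested. The lowest was that of Egr2, at 0.519. For 5 members in the wild type and 3 in the mutant, the SD was smaller than counting error alone would give, so at this depth a biological spread was not detectable there.

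By mean CPM, Egr1 stood near the middle of the genes tested (percentile 52.0) and the other 9 below it, down to Fosb (percentile 9.73). Levels were compared between genes per length, first as FPKM, the length- and depth-scaled value the authors deposited. On that scale Nr4a1 (5.74 to 7.49 over the 6 libraries) and Ier2 (6.04 to 8.44) were the highest and overlapped. Junb (2.39 to 4.50), Egr1 (2.05 to 3.98) and Egr3 (2.29 to 4.73) followed and overlapped each other. Npas4 came next, at 0.765 to 1.79, then Fos (0.491 to 1.07) and Arc (0.387 to 0.880), with overlapping neighbours. Egr2 (0.200 to 0.298) and Fosb (0.0742 to 0.376) were the lowest.

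The length behind the deposited FPKM differed from the annotated exons. The count over the FPKM gave a length that equalled the exon length in GENCODE M21 for Ier2 (1522 bases), which has a single transcript. It was 1.70 times the exon length for Arc, 1.68 times for Egr1 and 1.61 times for Fos, and 0.321 times for Egr3 (1416 against 4406 bases). Per kilobase of GENCODE exons the highest was Ier2 (6.81 CPM per kb), then Egr1 (5.13), Nr4a1 (4.68), Junb (2.74) and Fos (1.18). Egr3 then stood at 0.961 CPM per kb, below Npas4 (1.09), with overlapping libraries, although it was above Npas4 in every library on the FPKM scale. The libraries of Egr1 overlapped there with those of both Ier2 and Nr4a1. Within a gene this length cancels, and the comparison of genotypes does not depend on it.

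**Figure D4:**
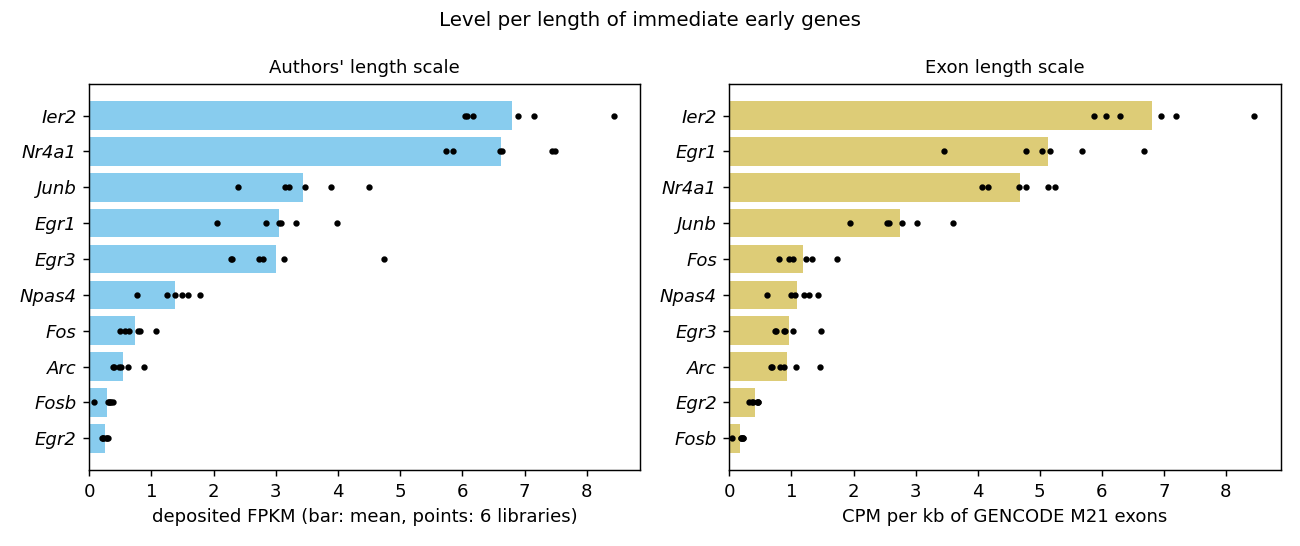
Mean level per length of the 10 genes (bars, x axis from 0) with the 6 libraries as points, on the deposited FPKM scale (left) and as CPM per kb of GENCODE M21 exons (right). Egr1 ranks above Nr4a1 on the right only, and Egr3 falls below Npas4 there.

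Other genes of the same response were read from lists chosen by function. Of 35 further early response genes, 0 passed the threshold in either direction and 2 were higher at an unadjusted p under 0.05 (1.71% of all genes in that direction). These were Jun, given above, and Atf3, a stress-induced transcription factor, at 6 to 13 counts in the wild types against 14 to 30 in the mutants (log2 fold change 1.09, SE 0.46). Without mutant replicate 2 the value of Atf3 was 0.64, and its unadjusted p was above 0.05 in 5 of the 6 fits without 1 library. Dusp1, a phosphatase that shuts off MAP kinases, had a log2 fold change of 0.29, which was 0.18 without mutant replicate 3. In this list 23 of 35 lay above 0, with a median log2 fold change of 0.12, beside a median of -0.01 over all genes tested, of which 51.3% lay below 0. The lists were not tested against each other.

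Of 19 tested genes known as later targets of activity, 0 passed the threshold. By edgeR 2 of them, Crh and Syt4, were higher at an unadjusted p under 0.05 (1.71% of all genes in that direction). Crh, a neuropeptide, had 8, 11 and 6 counts in the wild types against 55, 15 and 12 in the mutants. It was higher in all 3 mutants, with a log2 fold change of 1.69 (SE 0.59, edgeR unadjusted p = 0.0176). Dropping mutant replicate 1 gave 0.78 (edgeR unadjusted p = 0.139). Syt4, a vesicle protein, had a log2 fold change of 0.37 (edgeR unadjusted p = 0.0476), which was 0.22 without mutant replicate 3 (edgeR unadjusted p = 0.184). Penk, the enkephalin precursor, had one of -0.64, and Rgs2, a regulator of G-protein signalling, one of -0.42, which was -0.24 without mutant replicate 2. Bdnf, a growth factor under the control of Npas4 and CREB, had 27 to 67 counts in the wild types against 33 to 60 in the mutants (log2 fold change 0.14, SE 0.37). That value was -0.085 when wild-type replicate 3 was dropped and -0.057 without mutant replicate 3. The median of the list was -0.05.

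Upstream of these genes, 0 of 39 kinases, receptors, channels and transcription factors passed the threshold, with a median log2 fold change of -0.04. Srf stood at 57.5 ± 2.33 and 55.2 ± 1.20 CPM in wild type and mutant (SD, n = 3 each; log2 fold change -0.06, SE 0.10, and -0.031 without wild-type replicate 1). Creb1 stood at 59.9 ± 7.76 and 68.6 ± 26.1 CPM, with mutant replicate 1 the highest at 95.8 CPM, and its log2 fold change of 0.20 was -0.12 without that library and 0.44 without mutant replicate 2. The kinase Rps6ka1 had a log2 fold change of 0.39 (unadjusted p = 0.0442, edgeR adjusted p = 0.9996), the SRF co-activator Mkl1 of -0.27, the histone deacetylase Hdac4 of -0.26 and the kinase Rps6ka2 of -0.24, which was -0.10 without mutant replicate 1 and -0.37 without mutant replicate 3. The unadjusted p of Rps6ka1 was above 0.05 in 5 of the 6 fits without 1 library. Among 12 tested partners and brakes of these factors, 0 passed the threshold. The retinoid receptor Rxrg, whose family pairs with Nr4a1, stood at -1.05 (log2 fold change, SE 0.42). Its unadjusted p of 0.0421 rose above 0.05 in 4 of the 6 fits without 1 library. Zfp36l1, an RNA-decay factor, had one of 0.31, and dropping wild-type replicate 1 gave 0.12, dropping replicate 2 instead 0.57. Btg1, an anti-proliferation gene, had one of -0.17, which was 0.031 without wild-type replicate 3. Of 10 heat shock and stress genes, 0 passed the threshold and 8 lay above 0, with a median log2 fold change of 0.11. Over all genes tested, 51.3% lay below 0. Hspa8, a constitutive chaperone, was at 706 to 780 CPM in the wild types against 820 to 924 CPM in the mutants (log2 fold change 0.22, SE 0.09, unadjusted p = 0.0285, edgeR adjusted p = 0.9996). Its unadjusted p was above 0.05 in 4 of the 6 fits that left out 1 library. Hsph1 had a log2 fold change of 0.22 (0.13 without mutant replicate 1), Hsp90aa1 of 0.13 (0.020 without mutant replicate 2) and Ddit3 of 0.19 (0.069 without wild-type replicate 3).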

How the data were processed

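RNA of newborn cortex was sequenced in 3 wild-type and 3 Tle4-/- libraries. Per the submitters' processing notes, the tools included HISAT2 2.0.4, StringTie and edgeR, with GRCm38.p4 and mm10 as builds. Counting program, annotation and strand setting were not given in the sources used here. The table the authors deposited gives, per the file headers, a whole-number count and an FPKM value for each gene and library. It also gives the authors' own p-value and its adjusted form. In 25 rows a date in place of the gene symbol was restored from the gene ID.

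Counts were compared with edgeR 4.0.16 in R 4.3.3: filterByExpr, TMM factors, robust quasi-likelihood fit, 2-sided test, Benjamini-Hochberg adjustment over 16274 genes, threshold 0.05. The SE was taken from the log2 fold change and the F value, and 95% intervals use the fit's degrees of freedom. Log2 CPM used a prior count of 2. The steps were tested on simulated data. Precision is limited by 6 to 573 counts per member and library. Counting-error SDs assume Poisson counts and cover counting error only.

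Alternatives were DESeq2 1.42.0 size factors and Wald test, limma-voom (limma 3.58.1), 2 other filters, a replicate block, each library left out, and removal of mitochondrial or of X and Y genes. Members and lists were chosen with earlier results of these data known. Named genes are the 10 members, Tle4, Jun, Srf, Creb1, Bdnf, Col1a1, Ttr, up to 4 genes per list with the smallest p, and the 5 nearest to Fos. Marker lists of interneurons and striatum, also summed, reached 475 to 585 and 276 to 412 CPM. One gene of the cortical neuron list is not reported here and was left out of its sum.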

Additional observations from a re-analysis of the deposited data

How the results depend on the processing

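None of the 10 genes passed the threshold in any of the 14 alternative settings, and Egr3 without wild-type replicate 3 was the single case of an unadjusted p under 0.05. The median log2 fold change of the 10 stayed between -0.18 and -0.07. The number of genes past the threshold over the whole table was 18, and moved to 58 by the DESeq2 Wald test, 9 with a replicate block, and 8 to 19 with 1 library left out. Same-numbered deviations correlated at -0.06, 0.10 and -0.02 over genes (numbers 1, 2 and 3), within a range of -0.09 to 0.10 over all pairs. Not every library correlated best with its own number, and the block called 0 of the 10 genes. Correlations this small cannot show whether same-numbered animals shared a litter or were handled together. The scaling, filter and tool changes turned the sign of none of the 10. Leaving out 1 library turned some signs, and the log2 fold change then ranged over -0.019 to 0.51 for Fos, -0.81 to 0.047 for Fosb, -0.33 to 0.080 for Junb, -0.26 to 0.20 for Egr1, -0.069 to 0.17 for Egr2 and -0.30 to 0.24 for Npas4. It also did so for Btg1 (-0.31 to 0.031), Creb1 (-0.12 to 0.44), Bdnf (-0.085 to 0.42), Col1a1 (-0.23 to 1.65), Col22a1 (-0.00060 to 0.55), Moxd1 (-0.092 to 0.46), Entpd2 (-0.10 to 0.34), Ddit4 (-0.071 to 0.31) and Sardh (-0.067 to 0.37). These signs rest on single libraries. Fosb, Egr2, Fos and Arc are limited by depth, at 6 to 99 counts per library.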
